A study of Mus musculus with 16 samples.

Results

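MicroRNAs (miRNAs) of blood and immune cells were followed in the mouse ventricle over the first weeks after birth. They were the 5 miRNA genes Mir150, Mir142, Mir146, Mir155 and Mir223, chosen by their symbols, out of 1200 miRNA genes and 53801 genes in the count table. Ventricles of male and female C57BL/6JOlaHsd pups with no treatment named in the labels were taken on the first day after birth (P01) and at P04, P09 and P23, cut into pieces and rinsed in phosphate-buffered saline, and each of 16 pups gave 1 small RNA library, 4 per time point. Diet differed between the groups, since chow was on offer beside milk by P23 alone. The tissue is a mixture of cardiomyocytes, other cardiac cells and any blood left after the rinse, so that fewer cells of a type and less RNA per cell cannot be told apart. Of the 5 genes, 3 had counts in all 16 libraries (Mir150, Mir142 and Mir146) and 2 had none in any (Mir155 and Mir223).

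A miRNA is cut from a hairpin precursor into a short mature strand, which guides Argonaute proteins to messenger RNAs. Pairing rests mostly on the seed, bases 2 to 8 of the mature strand. miR-150 is abundant in mature B, T and natural killer cells and limits the transcription factor Myb in lymphocytes. miR-142 is made in nearly all cells of the blood lineage. miR-146a dampens inflammatory signalling by acting on Traf6 and Irak1, and is found in endothelial cells as well as leukocytes. miR-155 is induced in activated lymphocytes and macrophages, and miR-223 is the main miRNA of neutrophils and other myeloid cells.

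The mature strands are shown because the counts are per precursor gene, so that both strands of a hairpin are counted together and a member is told from its near copies by sequence alone. They are from RefSeq (GRCm38.p6), written 5′ to 3′ with the seed in capitals. For Mir150 the sequences used here hold the 3p strand alone, so that miR-150-5p, the strand named in the paper, is not shown.
miR-150-3p: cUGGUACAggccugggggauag
miR-142a-5p: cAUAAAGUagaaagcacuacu
miR-142a-3p: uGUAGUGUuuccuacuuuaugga
miR-142b: uCCAUAAAguaggaaacacu
miR-146a-5p: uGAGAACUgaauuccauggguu
miR-146b-5p: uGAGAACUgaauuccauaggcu
miR-155-5p: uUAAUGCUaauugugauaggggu
miR-223-3p: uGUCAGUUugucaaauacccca
The members have different seeds in the strands shown, and the seed of miR-150-5p was not compared. The seed of miR-146a-5p occurs in 2 of 1679 mature mouse miRNAs, the other being miR-146b-5p, which differs from it by G18A and U21C (counted from the 5′ end, the base of miR-146a-5p first). Its gene Mir146b had 4 counts over all libraries, against 3232 for Mir146. miR-142b is read from the opposite strand of the Mir142 hairpin, and its 20 bases are the reverse complement of bases 4 to 23 of miR-142a-3p. Mir142b had 1 count over all libraries, against 2569 for Mir142.

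In GRCm38.p6, Mir150 (ENSMUSG00000065495) lies on the plus strand at chr7:45121757-45121821 and in no other RefSeq gene. Mir142 (ENSMUSG00000105196) lies at chr11:87756864-87756927 on the plus strand, within Mir142b on the minus strand. Mir146 (ENSMUSG00000065601), which encodes miR-146a, lies at chr11:43374397-43374461 on the minus strand and in no other gene. Mir155 (chr16:84714140-84714204) lies within the non-coding host gene Mir155hg, and Mir223 (chrX:96242817-96242926) within the non-coding gene F630028O10Rik. The genes of the 3 counted members are 65, 64 and 65 bases long. Length hence differs little between them, while capture and amplification can differ with sequence, so that a ratio of 2 members compares time points and not their true abundance.

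Total counts were 2301587 to 5553530 per library and rose with age, from 2301587 to 2904097 at P01 to 4694722 to 5553530 at P23. miRNA genes held 2.12% to 4.55% of them, and the libraries also held fragments of messenger and ribosomal RNA. Mitochondrial genes took 17.6% to 19.7% of the counts at P01 and 40.9% to 44.1% at P23. Levels are given as normalized counts, which are counts divided by the effective library size (total count times the TMM factor) and multiplied by the mean effective size. The part of depth and of the mitochondrial share in the results was not tested beyond the scalings given below. Nothing in the labels names a batch.

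Mir150 was the most changed of the members. Its normalized counts at P01 were 153, 169, 148 and 147 in the 4 libraries, a mean of 154 ± 10.1 (SD, n = 4). At P04 they were 416, 543, 816 and 545 (579.8 ± 168), and at P09 they were 688, 473, 592 and 469.7 (556 ± 105). At P23 they were 3769, 4846, 2841 and 2679.6 (3534 ± 998). Each P04 and P09 library was above each P01 library, and each P23 library was above all others, while P04 and P09 overlapped. The order of the levels was thus P01, then P09 and P04 without a difference beyond their spread, then P23. As multiples of the P01 mean, the means at P04, P09 and P23 were 3.76, 3.61 and 22.9.

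Mir142 stayed low until P09 and was higher only at P23 among the 4 time points. Its normalized counts were 139, 161, 119 and 153 at P01 (143 ± 18.5, SD, n = 4), and 99.0, 105, 151 and 122 at P04 (119 ± 23.4). They were 143, 96.5, 104 and 138 at P09 (121 ± 23.7), and 291, 337, 220.3 and 252 at P23 (275 ± 50.3). The first 3 time points overlapped, and each P23 library was above every earlier one.

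Mir146 had a mean that was higher at each later time point. Its normalized counts were 87.6, 149.8, 113 and 129 at P01 (119.9 ± 26.3, SD, n = 4), and 124, 145, 240.1 and 157 at P04 (167 ± 50.9). They were 172, 209, 222 and 221 at P09 (206 ± 23.4), and 285, 355, 267 and 284 at P23 (298 ± 39.1). P04 overlapped with both P01 and P09, whereas P09 was above P01 and P23 above all earlier libraries.

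**Figure D1:**
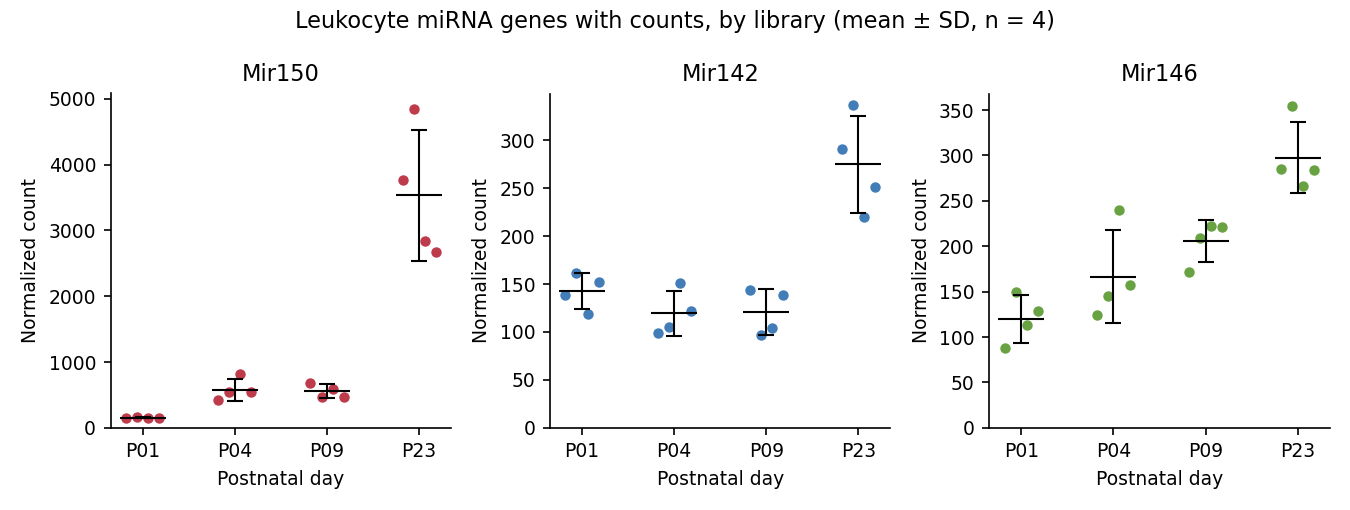
Normalized counts (y axis, linear, a separate scale for each gene) of Mir150, Mir142 and Mir146 by postnatal day (x axis), with 1 point per library and the mean ± SD of 4 libraries in black. Mir150 reaches 2679.6 to 4846 at P23, against 147 to 169 at P01, while Mir142 and Mir146 reach at most 337 and 355.

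Mir155 and Mir223 had 0 counts in each of the 16 libraries. A count of 0 allows up to 3 counts, which is 0.540 to 1.30 CPM (counts scaled to a library of 1e6) or 1.65 to 5.69 normalized counts, depending on the library, and covers counting error only. This limits the reads assigned to the gene, not the level of the miRNA, since Mir126a, a miRNA abundant in endothelium, and Mir133b, of muscle, both named after their values were seen, were also at 0 in all libraries. The host genes of Mir155 and Mir223 were near 0, with 11 counts in all for Mir155hg and 16 for F630028O10Rik. Mir142hg, the gene named as host of Mir142, had 19, against 2569 for Mir142. Host counts near 0 hence do not show whether a miRNA is present. Of the 1200 miRNA genes, 575 had no count in any library, 52.8% of the 159 within long non-coding RNA genes and 47.5% of the 261 outside other genes. The sources used here do not give how reads that overlap more than 1 gene were counted, and its part in the zeros of Mir155 and Mir223 was not tested.

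The study asked how miRNAs change between successive time points and from P01 to P09 and P23. A change was called at an adjusted p under 0.01 and a fold change over 1.8 (0.85 on the log2 scale) in edgeR's quasi-likelihood test over 10742 genes, 208 of them miRNA genes. The lowest count of the 3 members in any library was 58, so none entered the test through its high group alone. The p-values measure the spread between pups.

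In the P04–P01 comparison, Mir150 was upregulated by 1.91 on the log2 scale (standard error 0.20, adjusted p = 6.95e-08 in edgeR). It was the 1 member called of the 3 tested, where 1.07% of all genes and 0.962% of miRNA genes were called up. Of the 208 miRNA genes, 1 had a larger log2 fold change, Mir200c, named after its value was seen. Mir146 (0.48, adjusted p = 0.0797 in edgeR) and Mir142 (-0.26, adjusted p = 0.341 in edgeR) were not called, and their libraries overlapped.

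In the P09–P04 comparison, 0 of the 3 tested members were called by edgeR, with 0 at an unadjusted p under 0.05 and 0 called by DESeq2, where 1.4% of all genes and 0.962% of miRNA genes were called up. The log2 fold change of Mir150 was -0.06, with a 95% interval of -0.45 to 0.33. Mir142 was at 0.02 (-0.30 to 0.34) and Mir146 at 0.31 (-0.04 to 0.66). Under scaling to the miRNA genes alone, Mir146 was called (0.88) and the value of Mir150 turned to 0.50 without a call. The median over all miRNA genes was -0.56 here, so that the members stood above the middle of their class, with 35, 28 and 10 miRNA genes having larger values than Mir150, Mir142 and Mir146.

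In the P23–P09 comparison, Mir150 and Mir142 were upregulated, 2 of the 3 tested members, where 4.76% of all genes and 19.2% of miRNA genes were called up. The log2 fold change of Mir150 was 2.67 (standard error 0.20, adjusted p = 5.23e-11 in edgeR), and 1 miRNA gene had a larger one, Mir29a, named after its value was seen. That of Mir142 was 1.19 (standard error 0.16, adjusted p = 6.88e-07 in edgeR), and 20 miRNA genes had a larger one. Mir146 was not called (0.53, standard error 0.17, adjusted p = 0.0210 in edgeR). For all 3 the P23 libraries were above the P09 libraries, as they were for 12.9% of all genes and 24% of miRNA genes. Under library totals alone, the call of Mir142 was lost (0.49) and the value of Mir146 turned to -0.14.

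Over the longer intervals, Mir150 was the member called at P09 against P01, by 1.85 on the log2 scale (standard error 0.20, adjusted p = 2.10e-08 in edgeR), where 6.18% of all genes and 3.37% of miRNA genes were called up. Mir146 passed the p threshold in that comparison but not the fold threshold (0.78, standard error 0.18, adjusted p = 8.82e-04 in edgeR). Without P01 replicate 5 (0.91) or P09 replicate 2 (0.88) it was called, as it was under miRNA scaling (1.53) and library totals alone (1.07). At P23 against P01, all 3 tested members were upregulated, where 13.5% of all genes and 13.9% of miRNA genes were called up. The log2 fold changes were 4.52 for Mir150 (standard error 0.22, adjusted p = 1.04e-15 in edgeR), 1.32 for Mir146 (standard error 0.18, adjusted p = 5.74e-07) and 0.95 for Mir142 (standard error 0.16, adjusted p = 9.83e-06). Under library totals alone the call of Mir142 was lost (0.56). At P23 against P04, Mir150 (2.61) and Mir142 (1.20) were called and Mir146 was just under the fold threshold (0.84, adjusted p = 2.51e-04 in edgeR), where 9.55% of all genes and 13% of miRNA genes were called up. In that comparison Mir146 was called by DESeq2 (0.86), under miRNA scaling (1.27) and without P04 replicate 4 (1.07) or P23 replicate 1, 6 or 8 (0.88 to 0.91), and the call of Mir142 was lost under library totals alone (0.59).

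The choice of scaling moved all genes together. Against the main scaling, scaling to the miRNA genes shifted all genes, by their median on the log2 scale, by 0.20 (P04–P01), 0.52 (P09–P04), -0.13 (P23–P09) and 0.59 (P23–P01). Library totals alone moved it by 0.23, 0.07, -0.67 and -0.37 in the same comparisons. The calls of Mir150 held under all 3 scalings in each comparison in which it was called.

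**Figure D2:**
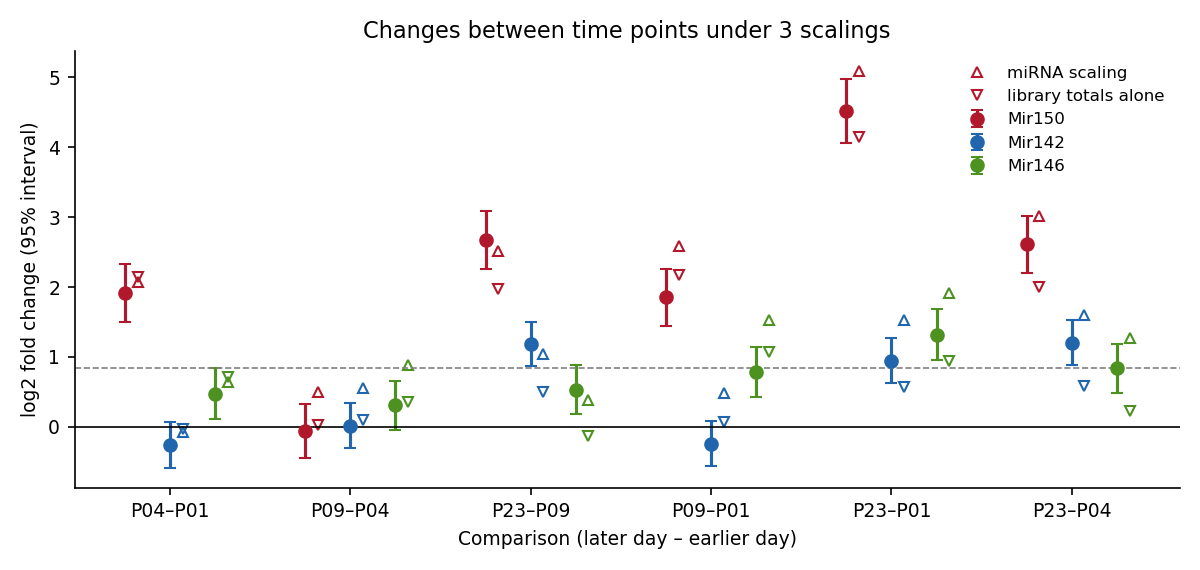
log2 fold changes (y axis) of Mir150, Mir142 and Mir146 in the 6 comparisons (x axis, later minus earlier time point). Filled circles are the edgeR values with 95% intervals, open triangles the values under miRNA scaling (upward) and library totals alone (downward), and the dashed line is the fold threshold; Mir150 lies above it under all 3 scalings in 5 comparisons.

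Ratios of 2 members within a library do not depend on the scaling. Mir150 was at 0.962 to 1.25 counts per count of Mir142 at P01 and at 4.2 to 5.40 at P04. It was at 3.39 to 5.69 at P09 and 10.7 to 14.4 at P23. The ratio was higher at P04 than at P01 by 2.14 on the log2 scale and at P23 than at P09 by 1.45, with no overlap in either case (exact permutation over libraries, two-sided, p = 0.0286, the lowest that 4 libraries against 4 allow, and adjusted p = 0.0429 over 12 tests). Between P04 and P09 it differed by -0.05 (exact permutation p = 0.8).

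The ratio of Mir150 to Mir146 was 1.13 to 1.74 at P01 and 3.35 to 3.74 at P04. It was 2.12 to 4 at P09 and 9.43 to 13.7 at P23. Its differences were 1.41 on the log2 scale from P01 to P04 and 2.12 from P09 to P23 (exact permutation p = 0.0286 each, adjusted p = 0.0429). That from P04 to P09 was -0.38 (exact permutation p = 0.143, adjusted p = 0.171). Mir150 thus rose relative to both other members over the first days and again after P09.

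Mir142 and Mir146 also changed against each other. Their ratio was 1.05 to 1.59 at P01 and 0.629 to 0.798 at P04. It was 0.462 to 0.833 at P09 and 0.825 to 1.02 at P23. It fell by 0.73 on the log2 scale from P01 to P04 (exact permutation p = 0.0286, adjusted p = 0.0429), and it was lower at P23 than at P01 by a log2 difference of -0.39 (exact permutation p = 0.0286, adjusted p = 0.0429). From P09 to P23 the difference of 0.66 did not pass (exact permutation p = 0.0571, adjusted p = 0.0762).

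**Figure D3:**
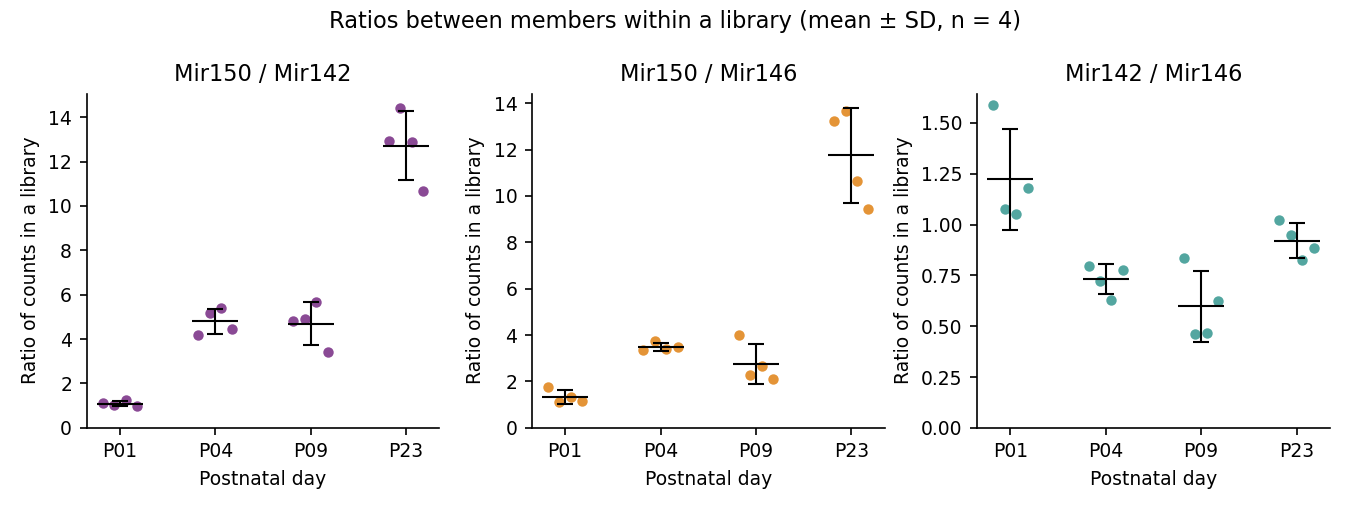
Ratio of the raw counts of 2 members in the same library (y axis, linear, from 0) by postnatal day (x axis), with 1 point per library and the mean ± SD of 4 libraries. Mir150 per Mir142 goes from 0.962 to 1.25 at P01 to 10.7 to 14.4 at P23, while Mir142 per Mir146 stays between 0.462 and 1.59.

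The share of Mir150 in the members' counts was higher at P23 than at any earlier time point. It held 34.2% to 40.2% of them at P01 and 65.1% to 68.5% at P04. It held 56.6% to 68.6% at P09 and 83.3% to 87.5% at P23. Of all miRNA counts, the members together held 0.294% ± 0.0235 (SD, n = 4) at P01 and 0.680% ± 0.0601 at P04. They held 0.991% ± 0.0784 at P09 and 2.98% ± 0.616 at P23. By mean CPM, Mir150 ranked 84th of the 1200 miRNA genes at P01 and 11th at P23, Mir142 87th and 51st, and Mir146 97th and 48th.

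Other miRNAs known from leukocytes were read beside the members. Of a list of 9 (Mir142b, Mir146b, 4 genes of the miR-181 family, Mir342, Mir147 and Mir511), 4 were tested and 0 were called up in any of the 6 comparisons, nor under miRNA scaling or library totals alone. With 13.9% of miRNA genes called up at P23 against P01, 0 of 4 is not a result about the list. Mir511, at mean normalized counts of 4.34 at P01 and 10.6 at P23, was too low to be tested. The median log2 fold change of the 4 at P23 against P01 was -0.64, beside -0.60 over the miRNA genes tested and 0.00 over all genes tested. The list was thus near the middle of the miRNA genes. For the 3 tested under miRNA scaling the median was 0.02. Mir181b-2, of a family abundant in developing lymphocytes, fell by 1.90 on the log2 scale (standard error 0.25, adjusted p = 7.92e-07 in edgeR). Mir342, hosted by the Evl gene, had mean normalized counts of 2070 at P01 and 1403 at P23 and was under the fold threshold (-0.56, adjusted p = 0.00673 in edgeR), while under library totals alone it was called down.

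The tested miRNAs of a list for red blood cells and platelets were upregulated at P23 against P01. Of 9 listed, 4 were tested, and 4 were called up at P23 against P01 and 0 at P04 against P01, the comparison in which Mir150 was first called, and all 3 scalings gave these counts, where 13.9% and 0.962% of miRNA genes were called up. In the steps between, the counts rested on the scaling. At P09 against P01, 0 were called, but 3 under miRNA scaling, and at P23 against P09, 3 were called, but 0 under library totals alone. The median log2 fold change of the 4 was 1.55 at P23 against P01. Mir451a and Mir144, a pair of miRNAs cut from 1 erythroid transcript, had values of 1.32 and 1.69 (adjusted p = 1.96e-07 and 7.94e-04 in edgeR). Mir486 (1.42) and Mir3107 (1.96) are near copies, so that the split of reads between them is uncertain. They had 11844 and 2922 counts over all libraries, against 1299 for Mir451a and 486 for Mir144, so that the sum of the list is mainly theirs. The part of cells other than blood in these counts was not tested. The summed CPM of the list was 148 to 197 at P01 and 361 to 585 at P23, without overlap.

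Messenger RNA fragments of immune cells were few in these libraries. Genes of T and natural killer cells (26 listed) summed to 6 to 32 counts per library, 4.27 to 5.98 CPM at P01 and 1.97 to 3.99 CPM at P23, and none could be tested. Cd3e, a subunit of the T cell receptor complex, had 8 counts over all libraries. Of 17 B cell genes, 1 could be tested (Ebf1), and it was not called in any comparison under the main scaling. Under miRNA scaling, 2 were tested and Cd74, of antigen presentation in B cells and macrophages, was called up at P23 against P01. The B cell list summed to 12.5 to 17.4 CPM at P01 and 16.8 to 27.3 at P23, and the counts were unevenly spread over it. Ebf1 had 885 counts over all libraries and Cd74 had 120, while Cd79a, a subunit of the B cell receptor, had 3. Mean normalized counts at P01 and P23 were 2.33 and 23.5 for Cd74, 1.07 and 3.05 for the immunoglobulin gene Ighm and 0 and 2.38 for Igkc, another one, these genes being named after their values were seen. Ighm had 36 counts and Igkc 15 over all libraries, and their means at P23 lie within the 1.65 to 5.69 normalized counts that 3 counts make. Not all genes of the list rose, since Ebf1 had means of 52.1 and 49.8 and Cd22 of 0.474 and 0. The part of lymphocytes in the values of Mir150 was not tested.

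Under the main scaling, the summed level of genes shared by leukocytes overlapped between P01 and P23 over the full list, but not without Tmsb4x. The 24 listed pan-leukocyte genes summed to 179 to 191 CPM at P01 and 158 to 186 CPM at P23. Tmsb4x, which most cell types express, held most of these counts, and without it, a choice made after its values were seen, the other 23 genes summed to 45.9 to 55.2 CPM at P01 and 63.6 to 88.0 at P23, a ratio of means of 1.58. Without Hcls1 as well, the other 22 summed to 35.2 to 42.7 CPM at P01 and 37.6 to 49.8 at P23. These overlapped, with a ratio of means of 1.16. Leaving out Hcls1 was also a choice made after its values were seen. Hcls1 rose from 46.6 to 140 mean normalized counts, while Runx1, which fell from 57.2 to 26.1, was kept. The ratio of 1.16 and the values per count of the 22 genes rest on that choice. Both ratios of means, 1.58 and 1.16, also rest on the scaling. TMM factors were 0.650 to 0.876 at P23 and 0.945 to 1.01 at P01. Over total counts instead, the 23 genes overlapped between P01 and P23. They held 194 of 4694722 counts in P23 replicate 8 and 120 of 2301587 in P01 replicate 5. Of the 8 tested at P23 against P01, Hcls1 (log2 fold change 1.60) and Lsp1 (1.00), which act on the cytoskeleton of leukocytes, were called up and Runx1, a transcription factor of blood formation, was called down (-1.10). With 13.5% of all genes called up and 16.6% called down, these few calls are not read as a result about the list. Under miRNA scaling 4 were called up and 0 down, with Ptprc, the leukocyte phosphatase CD45, and Lcp1 added and Runx1 lost. Under library totals alone 0 were called up and 2 down, with Hcls1 and Lsp1 lost and Tmsb4x added. Per count of the 23 genes in the same library, Mir150 stood at 0.742 to 0.784 counts at P01 and 7.83 to 13.7 at P23, and Mir142 at 0.627 to 0.806 and 0.607 to 0.971. Per count of the 22 genes, Mir150 stood at 0.957 to 1.05 and 13.0 to 27.8, and Mir142 at 0.8 to 1 and 1.18 to 1.93.

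Part of the macrophage genes were higher at P23 than at P01, where 13.5% of all genes were called up and 16.6% called down. Of 28 listed, 10 were tested, and 5 were called up and 0 down at P23 against P01, with 1 down (C1qa, another complement subunit) under library totals alone. Among them were C1qb, a complement subunit (2.84, adjusted p = 1.54e-09 in edgeR), and Lyz2, lysozyme (2.38, adjusted p = 8.14e-10). Cx3cr1, a chemokine receptor (3.27, adjusted p = 4.24e-05 in edgeR), was called already at P04 against P01 (3.00) and not at P23 against P09 (0.59). Not all macrophage genes rose. Mean normalized counts at P01 and P23 were 38.3 and 23.3 for C1qa and 30.0 and 22.4 for Cybb, neither called under the main scaling. The macrophage list summed to 38.2 to 52.6 CPM at P01, 38.5 to 54.8 at P04, 39.3 to 47.4 at P09 and 100.02 to 129.5 at P23. P23 thus lay above all earlier libraries, as it did for Mir150, Mir142 and Mir146 and for the erythroid list below. Neutrophil genes, of the cells that hold most miR-223, summed to 5.82 to 12.1 CPM at P01 and 1.13 to 3.93 at P23, without overlap, and 0 of 17 could be tested. Ly6g, a neutrophil surface marker, was at 0 counts throughout.

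Blood and platelet genes moved as well at P23 against P01, where 13.5% of all genes were called up and 16.6% called down. Of the erythroid genes, 8 of 16 listed were tested and 7 were called up at P23 against P01, among them Tfrc, the transferrin receptor (3.06, adjusted p = 3.56e-13 in edgeR), and the near copies Hba-a2 (3.51) and Hba-a1 (2.86) of alpha globin, whose split of reads is uncertain. Tfrc did not run with the beta globin gene Hbb-bs over the first days. At P04 against P01, where 1.07% of all genes were called up, Tfrc was called up and Hbb-bs down. The call of Hbb-bs was lost under both other scalings. Mean normalized counts at P01 and P04 were 30.5 and 119 for Tfrc and 1159 and 611 for Hbb-bs. The erythroid list summed to 389 to 415 CPM at P01, 251 to 320 at P04, 714 to 931 at P09 and 1475 to 1848 at P23. Of 12 platelet genes, the 2 tested, Vwf (1.12) and F13a1 (2.30), were called up, while Vwf is also made by endothelium and was not called under library totals alone. Mast cell genes (8 listed, 1 tested) gave 0 calls. The parts of macrophages, of red blood cells and of platelets in the members' values were not tested.

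**Figure D4:**
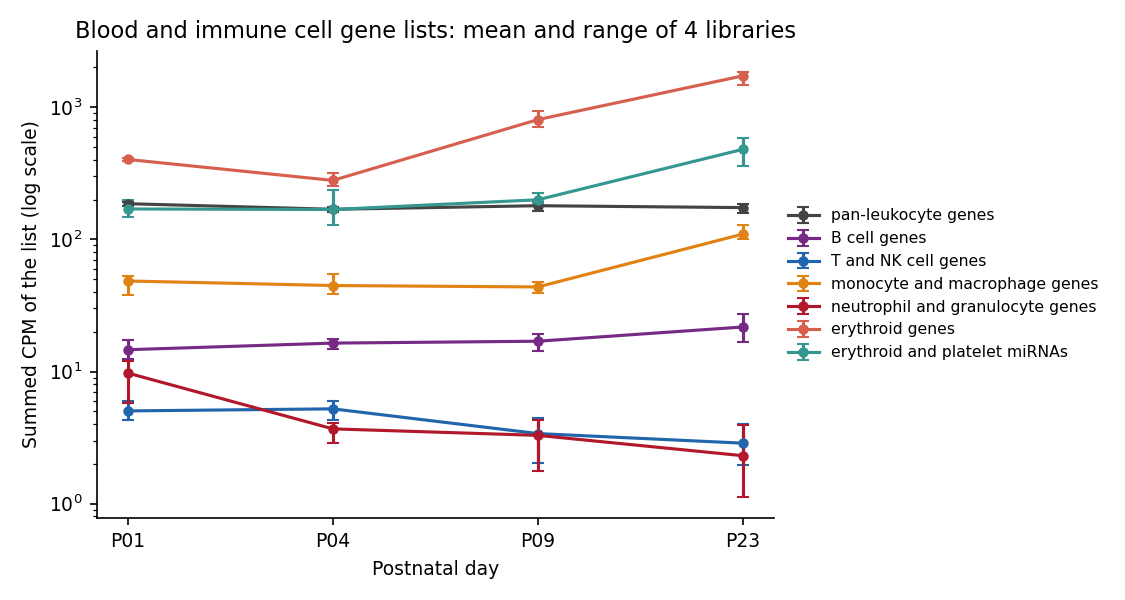
Summed CPM of the genes of 7 blood and immune cell lists (y axis, log scale) by postnatal day (x axis), with points for the mean and bars for the lowest and highest of 4 libraries. The macrophage list reaches 100.02 to 129.5 CPM at P23 and the erythroid list 1475 to 1848, while the T and natural killer cell list is under 6 throughout.

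Genes known as targets of the members were followed in the same libraries, as fragments of their messenger RNA. Of 10 targets of miR-150, 7 were tested at P23 against P01, and 2 were called down and 1 up, with a median of -0.13. Foxp1, a transcription factor of B cell development, had 137 to 169 normalized counts at P01 and 55.1 to 63.6 at P23 (-1.34, adjusted p = 6.33e-10 in edgeR), and 16.6% of all genes were called down in this comparison. Mmp14, a matrix protease, had 177 to 212 and 56.0 to 82.5 (-1.41, adjusted p = 1.22e-09), and Vegfa, an endothelial growth factor, was called up (1.11). Under miRNA scaling the calls of Foxp1 and Mmp14 were lost and 2 of the 7 were called up, and under library totals alone that of Vegfa was lost, so that the split of this list rests on the scaling. At P04 against P01, 0 of the 7 were called. In that comparison 1.07% of all genes were called up, and the share called down is not reported here. No result about the list is read from 0 of 7. Myb had 22 counts over all libraries and could not be tested.

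Targets of the other members are read against 13.5% of all genes called up and 16.6% called down at P23 against P01. Of 8 tested targets of miR-142, 0 were called down and 2 up, Il6st, a subunit of interleukin-6 family receptors (1.19), and Adcy9, an adenylyl cyclase (1.15), both lost under library totals alone, while 4 were called up under miRNA scaling. Of 5 tested targets of miR-146, 0 were called, and their median was 0.40, with 2 called up under miRNA scaling and 1 down under library totals alone. For the members at 0 counts, 1 of 7 tested targets of miR-155 was called up (Cebpb, a myeloid transcription factor, 1.47) and 2 of 9 tested targets of miR-223 down (Ctsl, a cathepsin, -1.52, and Igf1r, the insulin-like growth factor receptor, -1.41). Under miRNA scaling, 3 targets of miR-155 were called up, and of those of miR-223 4 were called up and 1 down, so that these splits rest on the scaling.

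The genes whose log2 CPM ran most like that of a member over the 16 libraries are given as a description, since all of them share the libraries and the 4 time points. For Mir150 they were Mir204 (Pearson r = 0.95), Mir378d (0.94), Mir3107 (0.93), Mir497 (0.92) and Mir100 (0.91) among 207 miRNA genes. Among 10534 other genes they were Hspa5 (0.98), Tcaim, Asb14, Pcp4l1 and mt-Th (0.95 each). For Mir142 they were Mir27a (0.93), Mir29a, Mir486, Mir192 and Mirlet7f-2 (0.91) and, of other genes, Gm37709, Gm13341, Gm26109, Slc1a6 and mt-Ta (0.92 to 0.93). For Mir146 they were Mir497 (0.90), Mir100, Mir150 (0.89), Mir3107 and Mir221 (0.87), and, of other genes, Pde4a (0.94), Nudt18, Rubcn and Dnajb2 (0.91). Between the members, r was 0.89 for Mir150 and Mir146, 0.73 for Mir150 and Mir142 and 0.65 for Mir142 and Mir146.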

How the data were processed

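Small RNA libraries were made by the authors with the SMARTer smRNA-Seq kit (polyadenylation, cDNA synthesis and PCR, no molecular identifiers) and sequenced on a NextSeq instrument. The authors ran bcl2fastq and Trimmomatic on the reads, STAR for alignment (GRCm38.p6) and featureCounts for counts per gene, and the deposited counts are whole numbers without normalization. The sources used here do not give tool versions, the strand setting or the treatment of multiply mapped reads. Of the value columns, 16 were matched to time points by name and 1 was not used, and replicates carry the animal numbers of the columns. Symbols were found for 53620 genes.

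Counts were tested with edgeR 4.0.16 (R 4.3.3) in 1 quasi-likelihood fit of all 16 libraries (robust, TMM, filterByExpr with a minimum count of 10 and total of 15), with Benjamini-Hochberg adjustment over 10742 genes. The thresholds are those of the study, whose minimum mean count of 300 was used only as an alternative. DESeq2 1.42.0 was another. Ratios within libraries were compared by two-sided exact permutation over 70 assignments. The steps were tested on simulated data. The members, lists and tests were chosen with earlier results of these data known. Named genes were the members, their copies, hosts and neighbours, up to 3 called genes per list with the largest change at P23 against P01, and the 5 miRNA and 5 other genes most like each member. Some genes that this rule takes are not reported here.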

Additional observations from a re-analysis of the deposited data

How the results depend on the processing

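Over the alternatives, 84 counts of called members kept within 1.5 times the main count and 12 did not. With miRNA scaling the count called was 1 in P09–P04 (Mir146) and 2 in P09–P01. Under library totals alone it was 1 in P23–P09, 2 in P09–P01 and 1 in P23–P04. The study's minimum mean count of 300, which only Mir150 reaches, left 1 in P23–P09, P23–P01 and P23–P04. With no filter, or at an adjusted p under 0.05 without a fold threshold, 2 were called in P09–P01. With 1 library left out, the count was 1 to 2 in P09–P01 and 2 to 3 in P23–P04.

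Reversed values were all of uncalled changes. For Mir150 in P09–P04 they were 0.50 (miRNA scaling), 0.025 (library totals alone), 0.019 (no filter) and, without 1 library, between -0.18 and 0.16, for Mir142 in P09–P04 without 1 library between -0.073 and 0.16, and in P09–P01 0.49 (miRNA scaling) and 0.069 (library totals alone), and for Mir146 in P23–P09 -0.14 (library totals alone). The cause was not tested. All 108 alternative ratio values kept their direction or stayed within the spread. No paired analysis was possible because each pup gave 1 library at 1 time point, so that no animal was followed across time points. The count columns carry animal numbers and not the replicate numbers of the labels, so libraries could not be matched by replicate number either. The filter on low counts left 0 of 26 T and natural killer cell genes and 0 of 17 neutrophil genes, and the part of depth in this was not tested.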

Other observations

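Lists of cells other than leukocytes were read beside the members at P23 against P01. In this comparison 13.5% of all genes and 13.9% of miRNA genes were called up, and 16.6% of all genes were called down. Of 10 muscle miRNAs, 7 were tested, with Mir208a (1.03) and Mir1a-2 (0.89) called up and Mir208b, hosted by the fetal myosin gene Myh7, called down (-4.24), and under library totals alone neither rise was called. Of 14 cardiomyocyte genes, 7 were called up and 2 down, Tnni1 (-9.90) and Myh7 (-7.47), both of fetal muscle. Of 12 miRNAs of endothelium, smooth muscle and fibroblasts, 7 were tested and 1 was called, Mir10a (1.69), against 5 called up under miRNA scaling. Of 10 genes of miRNA processing, 9 were tested, with the Argonaute gene Ago3 called up (1.06, lost under library totals alone) and Ago4 (-1.89) and Dgcr8, a part of the Microprocessor complex (-1.87), called down. The list counts under both other scalings were added after the data were seen.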
